A study of Mus musculus with 2 samples.

Results

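The cells described here are stem and progenitor cells of mouse bone marrow that carried transcripts of the platelet lineage but no transcript of Gata1 or Klf1. A droplet was kept as a cell when it had at least 500 unique molecular identifiers (UMIs, 1 per captured transcript) and at most 20% mitochondrially encoded UMIs. A kept cell was a member when it had no UMI of Gata1 or Klf1 and at least 2 UMIs summed over the 8 genes Pf4, Itga2b, Gp1bb, Gp9, Gp5, Gp6, Treml1 and Ppbp. This gave 291 members among 3402 kept cells, 8.55% (95% Clopper-Pearson interval 7.64 to 9.54%). Aliquot 1 held 87 members of 1574 cells, 5.53% (4.45 to 6.77%), and aliquot 2 held 204 of 1828, 11.2% (9.75 to 12.7%). The share of members was higher in the more deeply sequenced aliquot, where kept cells had a median of 2071.5 UMIs against 946.5. The values of the 8 genes, Gata1 and Klf1 chose the members, so these genes are described and not compared as findings.

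The study sequenced single cells on the inDrops droplet platform from 1 pool, loaded as 2 aliquots that are technical replicates of each other. The pool joined GFP+ cells, sorted without further surface markers from Mds1-GFP/+ Flt3-Cre mice, with SLAM LT-HSCs of wild type mice. The SLAM gate took live Lin- cKit+ Sca+ CD48- CD150+ cells, a surface phenotype of long-term hematopoietic stem cells (LT-HSCs), and all marrow was first depleted of cells bearing B220, Gr1, Ter119, CD4 or CD8. The GFP cassette stands between loxP sites, so a cell with Cre activity from the Flt3 driver loses it, and the files do not say from which mouse a single cell came. The labels give no age or number of animals. With 1 pool there is no biological replicate, no test between groups was possible, and every interval below covers counting error only.

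Platelets are shed by megakaryocytes, which descend from hematopoietic stem cells through progenitors shared in part with red cells. Gata1 is a zinc finger transcription factor needed by both lineages, and Klf1 drives the erythroid one. Stem cells that transcribe platelet genes such as Vwf and Itga2b have been described as platelet-primed, a term for low-level lineage transcription in a cell that keeps stem cell properties. In droplet data a gene with few transcripts per cell is often missed, so 0 UMIs of Gata1 or Klf1 does not show that a cell lacked them.

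The promoters of the genes that carried the selection are shown because the members were chosen for platelet genes with no Gata1 UMI, and GATA and ETS family factors are known to act on such promoters. The 250 bases before the start of a gene were taken from RefSeq on GRCm38.p6. Capitals mark GATAA, the core of the GATA motif, and GGAAG, a core of the ETS motif, each on either strand (TTATC and CTTCC on the other), and no match of one overlapped the other. Printed 5′ to 3′ in the direction of transcription are Pf4 (chr5:90772185-90772434, + strand), Gp9 (chr6:87777820-87778069, + strand) and Treml1 (chr17:48359666-48359915, + strand).
Pf4: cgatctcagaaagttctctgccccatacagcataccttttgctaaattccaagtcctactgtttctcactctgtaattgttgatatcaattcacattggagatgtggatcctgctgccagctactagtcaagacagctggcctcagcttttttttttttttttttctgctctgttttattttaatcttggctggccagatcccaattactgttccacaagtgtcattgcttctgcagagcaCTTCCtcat
Gp9: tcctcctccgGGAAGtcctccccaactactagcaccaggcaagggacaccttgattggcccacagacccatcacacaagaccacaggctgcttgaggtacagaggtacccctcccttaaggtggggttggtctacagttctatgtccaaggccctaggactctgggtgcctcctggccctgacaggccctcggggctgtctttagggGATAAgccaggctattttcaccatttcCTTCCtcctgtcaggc
Treml1: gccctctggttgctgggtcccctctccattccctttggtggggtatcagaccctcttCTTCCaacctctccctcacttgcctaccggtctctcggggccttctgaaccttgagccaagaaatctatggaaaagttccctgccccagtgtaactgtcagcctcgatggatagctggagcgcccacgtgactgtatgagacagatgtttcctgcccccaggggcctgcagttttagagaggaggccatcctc
Pf4 had 0 matches of GATAA and 1 of GGAAG, whose first base lay 9 bases before the start. Gp9 had 1 GATAA, 43 bases before the start, and 2 GGAAG. Treml1 had 0 GATAA and 1 GGAAG, 193 bases before the start. The window of Itga2b (chr11:102469884-102470133, - strand) is not printed because 180 of its bases are exonic in a GENCODE transcript; it held 0 GATAA and 4 GGAAG. Over the 8 rule genes, 3 windows held GATAA (Gp9, Gp5 and Gp6) and 7 held GGAAG. Of 27025 RefSeq promoters of this length, 23.0% held GATAA and 63.6% held GGAAG. A match describes letters and not a bound site.

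Pf4, the platelet granule chemokine, and Itga2b, the CD41 subunit of the fibrinogen receptor, made up most of the signal that defined the members. Itga2b (GRCm38 chromosome 11, 102453297 to 102470122) had 443 UMIs in 206 members, at most 8 in a cell. Pf4 (chromosome 5, 90772435 to 90773383) had 457 UMIs in 124 members, with 35 of them in a single cell. Itga2b was thus spread over more cells than Pf4 with a like number of UMIs. In UMIs scaled to a library total of 1e6 (counts per 1e6, CPM), Pf4 was at 779 in aliquot 1 and 587 in aliquot 2, and Itga2b at 1030 and 512. Gp9 (77 UMIs in 59 cells) and Gp5 (65 in 50) belong, with Gp1bb (16 in 14), to the receptor for von Willebrand factor. Gp1bb was at 0 in aliquot 1, where an interval up to 29.0 CPM was left. Treml1, a receptor of platelet granules, had 72 UMIs in 48 cells. Ppbp, the precursor of a platelet chemokine, had 19 in 14. Gp6, the platelet collagen receptor, had 1 UMI, so it contributed nearly nothing to the selection.

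Most members held few of these transcripts. Of the 291, 142 had exactly 2 UMIs of the 8 genes, 94 had 3 or 4, 38 had 5 to 9 and 17 had 10 or more, up to 41. Those 17 cells carried 27.1% of the 1150 UMIs, at a median depth of 4271 UMIs against 2220 in the cells with 2. A single gene supplied all UMIs in 128 members, 2 genes in 114, 3 in 39 and 4 or more in 10. Itga2b was the only gene detected in 77 members and Pf4 in 27, both were present in 74, and neither in 35. Just outside the threshold, 409 cells had exactly 1 UMI, from Itga2b in 187, Pf4 in 79, Gp9 in 71, Gp5 in 26, Treml1 in 25, Ppbp in 16, Gp1bb in 3 and Gp6 in 2. Their median depth was 1818 UMIs, between the 1220 of cells with 0 UMIs and the 2390 of members.

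**Figure D1:**
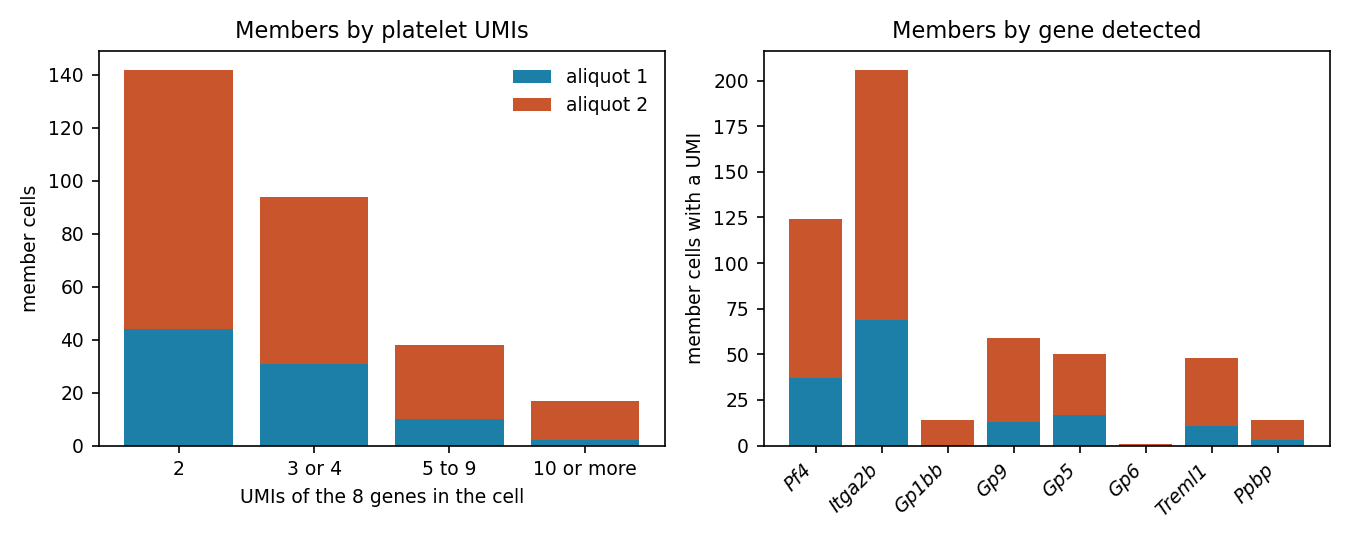
Number of members (y axes) by the UMIs of the 8 selecting genes in the cell (left) and by the gene detected (right), stacked by aliquot. Cells with 2 UMIs (142) are the most frequent class, and Itga2b was detected in 206 members, Pf4 in 124 and Gp6 in 1.

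Free transcripts in the droplets can give such UMIs. Barcodes under 200 UMIs, used here as a guide to free RNA, had the 8 genes at 219 CPM, against 336 CPM in all kept cells and 1560 CPM in members. Of these 6492 barcodes, 17 held at least 2 UMIs of the 8 genes. Their mitochondrially encoded list was at 125063 CPM, against 49931 CPM in kept cells with 0 UMIs of the 8 genes. Whether such barcodes hold only free RNA was not tested, so 219 CPM is not a measured level of it. Among 19 kept cells rich in neutrophil transcripts (at least 10 UMIs over Camp, Ltf, Ngp, S100a8 and S100a9, median depth 2302 UMIs), 0 had a UMI of the 8 genes, which allows a share of up to 17.6%. Of the other 3383 cells, 797 had at least 1, 23.6% (22.1 to 25%), at a median depth of 1413 UMIs, and 343 (10.1%) after thinning to 500 UMIs. With 19 such cells a background of several percent was not detectable. Scrublet marked 6 members as doublets, 2.06%, which were left in, against 7 of the 290 depth-matched cells without the 8 genes, 2.41%, and 1 barcode sequence occurred among the members of both aliquots.

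Gata1 and Klf1, which the rule used, were detected in some of the cells with platelet transcripts. Of 357 kept cells with at least 2 UMIs of the 8 genes, 66 had a UMI of Gata1 or Klf1, 18.5% (14.6 to 22.9%), namely 58 with Gata1 and 10 with Klf1. The members are the 291 of the 357 in which neither gene was detected. Reporter transcripts were found in 8 members, 2.75% (1.19 to 5.34%), and in 6 of 290 depth-matched cells without the 8 genes, 2.07% (0.763 to 4.45%), so the intervals overlapped.

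To describe the rest of the transcriptome, each member was paired with the kept cell of its aliquot nearest in depth, within 10%, that had 0 UMIs of the 8 genes, Gata1 and Klf1. This gave 290 pairs, with 730548 UMIs outside the rule genes in members and 724672 in the matched cells, median depths of 2382.5 and 2383 UMIs, and 1241 and 1221.5 detected genes. A gene was compared when it had, or was expected to have, at least 20 UMIs in members. Of 6926 such genes, 734 were at least 1.5-fold higher in members (10.6%) and 816 at least 1.5-fold lower (11.8%). The interval of the ratio lay outside 1 for 405 of the former and 495 of the latter. For gene lists the minimum was 10 UMIs, which 9336 genes reached; there, 12.8% of genes were at least 1.5-fold higher, 15.4% at least 1.5-fold lower, 49.1% above a ratio of 1 and 50.9% below, with a median log2 ratio of −0.01. Each list below is to be set beside these shares. Since members were picked by platelet transcripts, a difference from the matched cells is a description of the picked cells.

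Platelet genes that took no part in the selection included 27 that were at least 1.5-fold higher in members, among them the thrombin receptor F2r and the GTPase Rap1b. Of 101 such genes with a feature, in 4 lists joined, 84 reached the minimum; the 27 were 32.1% of these, against 12.8% of all genes, and 6 were at least 1.5-fold lower, 7.14% against 15.4%. The median log2 ratio was 0.17, with 55 genes above a ratio of 1 and 29 below; it was 0.32 in aliquot 1 and 0.15 in aliquot 2. Without the 55 members of 5 or more UMIs of the 8 genes, a setting added after seeing the data, 17 of 77 genes were at least 1.5-fold higher and the median was 0.08. The share of all genes at the minimum of 10 UMIs was not counted in that setting, so this count is not read as an excess. Genes detected in under 10 UMIs numbered 17, among them 8 at 0 in members: Clec1b, G6b, P2ry12, Ptgir, Slc6a4, Tubb1, Myl9 and Lyst. Tubb1, the tubulin of the platelet marginal band, and Myl9, a myosin light chain of platelets, mark mature megakaryocytes, as do Clec1b and the ADP receptor P2ry12. Together the 17 genes had 34 UMIs in members and 37 in matched cells, so a difference in them was not detectable at this depth.

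Among receptors, 5 of 18 measured genes were at least 1.5-fold higher and 0 at least 1.5-fold lower, with a median log2 ratio of 0.07. F2r, the thrombin receptor PAR1 (chromosome 13, 95601803 to 95618487), was at 189 CPM in members and 71.1 in matched cells of aliquot 1, and at 152 and 50.2 in aliquot 2. Its pooled ratio was 2.95 (2.04 to 4.36), from 116 UMIs in 70 members against 39 in 25 matched cells. F2r was thus higher in the members of both aliquots. F2rl2, the thrombin co-receptor PAR3 and the neighbour of F2r on chromosome 13 (95696853 to 95702739), had 31 UMIs in 16 members against 1 UMI in the matched cells, a ratio of 30.8 (5.12 to 1253). Itgb3, the partner of Itga2b, was at 50.6 against 19.3 CPM, a ratio of 2.62 (1.38 to 5.25), which was 4.26 when Itga2b was left out of the selection. Cd9, a tetraspanin of platelets and early stem cells, was at 528 and 472 CPM in members of aliquots 1 and 2 and at 229 and 319 CPM in their matched cells, a pooled ratio of 1.59 (1.34 to 1.89). Without the members of 5 or more UMIs of the 8 genes the Cd9 ratio was 1.20, below the 1.5-fold threshold. Trpc6, a calcium channel, had 26 UMIs against 10 (2.58, 1.20 to 5.99), but against all cells with 0 UMIs, without depth matching, the ratio was 0.829. Gp1ba and Selp, a receptor subunit and a granule adhesion molecule, had 4 and 6 UMIs in members and the same numbers in matched cells, too few to compare.

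Of 20 measured granule and secretion genes 9 were at least 1.5-fold higher (45%) and 2 at least 1.5-fold lower, with a median of 0.27. Plek, the platelet substrate of protein kinase C, was at 229 CPM in aliquot 1 (matched cells 55.3) and 111 CPM in aliquot 2 (matched cells 50.2), a pooled ratio of 2.57 (1.74 to 3.87). Rab27b, a small GTPase of dense granule release, was at 86.7 against 39.5 and 71.2 against 28.4 CPM in the 2 aliquots, a ratio of 2.43 (1.46 to 4.20). Tgfb1, a growth factor stored in alpha granules, had a ratio of 1.81 (1.31 to 2.51). Slc18a2, which loads serotonin into dense granules, had 1.57 (1.19 to 2.06), but 1.15 when Itga2b was left out of the selection, 1.44 without granulocyte-rich cells and 1.05 in aliquot 1. The setting without granulocyte-rich cells was also added after seeing the data. Plek, Rab27b and Tgfb1 were at least 1.5-fold higher in both aliquots. Vwf, the adhesive protein used elsewhere to mark platelet-primed stem cells, had 59 UMIs in 43 members against 32 in 27 matched cells, a ratio of 1.83 (1.17 to 2.91). For Vwf the difference lay in aliquot 2 (86.1 against 43.5 CPM) and in the strongest members: aliquot 1 had 55.2 against 47.4 CPM, and without the members of 5 or more UMIs the ratio was 1.04. It was 2.76 without Itga2b in the rule. Nrgn was at 590 against 426 CPM (1.38, 1.19 to 1.61), and the proteoglycan Srgn was level at 0.99 (0.930 to 1.06). F13a1, coagulation factor XIII, went the other way with 2 UMIs in members against 33 in 7 matched cells. It is also a monocyte gene, and 12 of the matched cells were rich in granulocyte transcripts; without such cells the ratio of F13a1 was 0.0733.

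In the cytoskeleton and signalling list 8 of 26 genes were at least 1.5-fold higher and 3 at least 1.5-fold lower, with a median of 0.25. Rap1b, the small GTPase that switches on the fibrinogen receptor (chromosome 10, 117813871 to 117846035), was at 1001 and 664 CPM in members of aliquots 1 and 2 and at 371 and 299 CPM in their matched cells. The pooled ratio was 2.32 (1.98 to 2.72), from 528 UMIs in 156 members and 226 in 107 matched cells, and it was 1.51 without the members of 5 or more UMIs. Prkar2b, a regulatory subunit of protein kinase A, was at 119 against 63.5 CPM (1.88, 1.3 to 2.74), and Sdpr, a caveolar protein, at 53.4 against 24.8 (2.15, 1.20 to 3.99). The Sdpr ratio was 1.06 without the members of 5 or more UMIs. It was 10.3 when Itga2b was left out of the selection, from few UMIs in the comparison cells. Gnaz, a G protein subunit of platelets, had 17 UMIs against 5, a ratio of 3.37 (1.19 to 11.7). Fermt3, the integrin activator kindlin-3, was at 376 against 257 CPM, 1.47 (1.21 to 1.78), just under the threshold. Actn1, an actin cross-linker, was lower, at 39.4 CPM in aliquot 1 (matched cells 79.0) and 28.2 CPM in aliquot 2 (matched cells 58.5) (0.485, 0.277 to 0.825). Mylk, myosin light chain kinase, was at 0.638 (0.407 to 0.987), but at 1.14 when Itga2b was left out of the selection and 0.885 without the members of 5 or more UMIs.

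**Figure D2:**
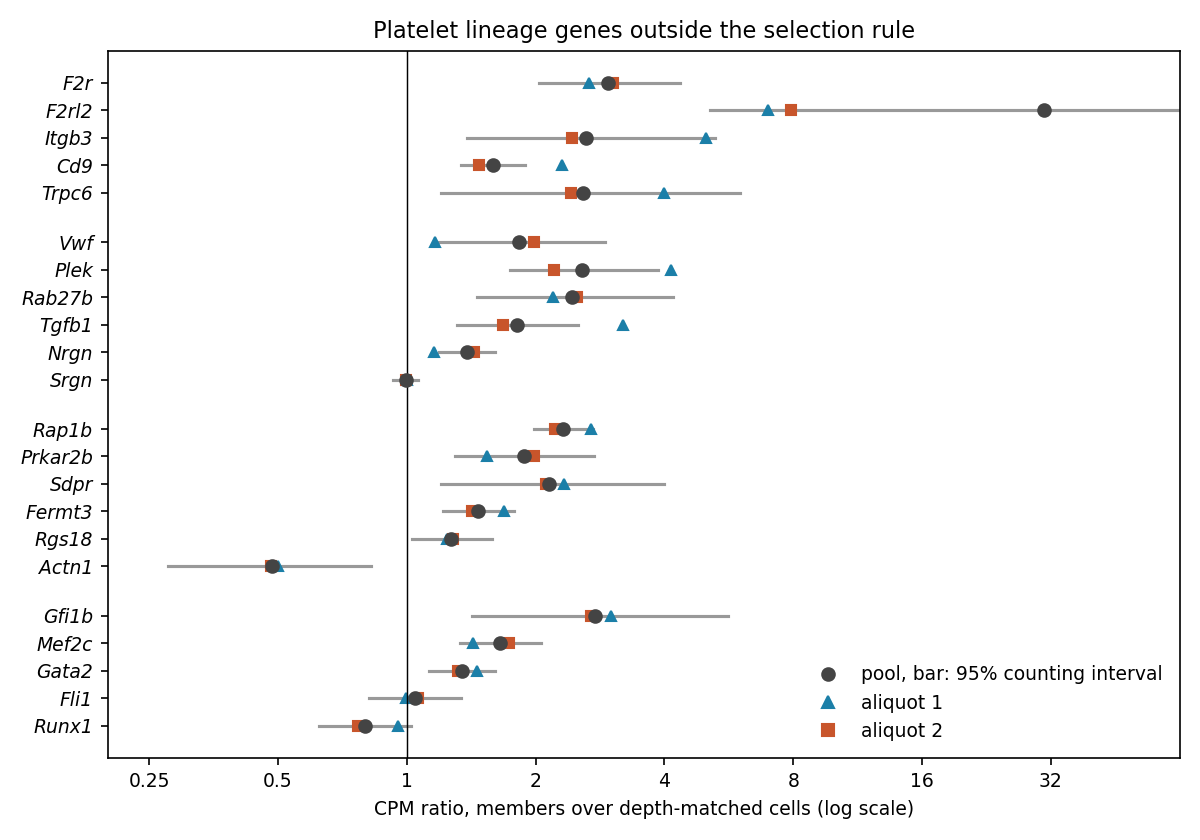
Ratio of CPM in members over depth-matched cells (x axis, log scale) for 22 platelet lineage genes outside the rule, from top to bottom receptors, granule genes, cytoskeleton and signalling genes, and transcription factors. Circles show the pool with 95% counting intervals, triangles aliquot 1 and squares aliquot 2. For F2rl2 the interval runs past the axis to 1253, and the square is a ratio of 7.93 against a floor of 3 UMIs. F2r (2.95) and Rap1b (2.32) lie to the right of 1 in both aliquots, and Actn1 to the left.

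Of 20 transcription factors of the megakaryocyte lineage, 5 were at least 1.5-fold higher and 1 at least 1.5-fold lower, with a median of 0.15. Gfi1b, a repressor that works with Gata1 in both lineages, had 36 UMIs against 13 (2.75, 1.42 to 5.64). Mef2c, a factor of megakaryocyte and lymphoid cells, was at 308 against 186 CPM (1.65, 1.33 to 2.06). Mafk, a small Maf partner of Nfe2, had 33 UMIs against 14 (2.34, 1.22 to 4.73), with the opposite direction in aliquot 1 (0.749). Gata2, expressed before Gata1 in this lineage, was at 422 against 313 CPM, a ratio of 1.35 (1.13 to 1.60), and the Gata1 cofactor Zfpm1 had 1.33 (1.00 to 1.77). Both lay under the 1.5-fold threshold. Fli1 (1.04, 0.817 to 1.34), Tal1 (1.14, 0.887 to 1.47), Nfe2 (0.937, 0.708 to 1.24) and Runx1 (0.799, 0.623 to 1.02) had intervals that held 1. Ikzf2 was the 1 lower factor, at 78.0 against 135 CPM (0.577, 0.409 to 0.808). Its ratio was 0.994 when Itga2b was left out of the selection and 0.712 without the members of 5 or more UMIs, so neither setting had a lower call for it.

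Erythroid genes were few and mixed in direction. Of 33 with a feature 11 were measured, 3 at least 1.5-fold higher and 2 at least 1.5-fold lower, with a median log2 ratio of 0.03. The 2 clearest were Aqp1, the red cell water channel, with 55 UMIs in 38 members against 13 in 12 matched cells (4.20, 2.26 to 8.37), and Hemgn, a nuclear protein of erythroid and early progenitor cells, with 61 against 21 (2.88, 1.73 to 4.98). Both were higher in each aliquot. Without the members of 5 or more UMIs these ratios were 2.77 and 4.66, and Hemgn had 5.80 without Itga2b in the rule. Car2, carbonic anhydrase, was abundant in both sets, at 1821 against 1340 CPM (1.36, 1.25 to 1.48). Tfrc, the transferrin receptor, had 4 UMIs against 15 (0.265, 0.0639 to 0.830). The 4 globin genes of the list together had 26 UMIs in members and 26 in matched cells. Slc4a1, Rhd, Trim10 and Sphk1 were at 0 in both sets, and Alas2, Cldn13, Add2 and Nxpe2 at 0 in members with 1 UMI each in matched cells. Together the 22 genes under the minimum had 35 UMIs in members and 32 in matched cells.

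The plot of gene lists shows that LT-HSC genes were shifted the other way. Of 29 measured, 2 were at least 1.5-fold higher (6.90%), 9 at least 1.5-fold lower (31.0%), 8 lay above a ratio of 1 and 21 below, and the median log2 ratio was −0.25. Procr, the stem cell surface receptor EPCR, was at 15.8 CPM in aliquot 1 (matched cells 166) and 67.9 CPM in aliquot 2 (matched cells 134), a pooled ratio of 0.422 (0.288 to 0.609), and 0.729 when Itga2b was left out of the selection. Ly6a, which encodes the Sca antigen of the sort gate, was at 23.6 against 221 and 82.8 against 244 CPM in the 2 aliquots, a ratio of 0.302 (0.218 to 0.413). Hlf, a transcription factor of stem cells, was at 260 against 545 and 361 against 634 CPM in the 2 aliquots, 0.556 (0.474 to 0.650). Members of both aliquots were thus lower for these 3 genes. With Itga2b left out of the selection Hlf had 0.687, under the 1.5-fold threshold. Cdkn1c, a cell cycle inhibitor of quiescent stem cells, had 15 UMIs against 56 (0.266, 0.140 to 0.476), and Ifitm1 was at 318 against 571 CPM (0.556, 0.471 to 0.654), but at 0.849 with Itga2b left out. Gimap6 was at 0.555 (0.404 to 0.756), but at 1.26 when Itga2b was left out of the selection. Mecom, the locus that carries the reporter, had 60 UMIs against 66 (0.902, 0.625 to 1.3). The list shares Gata2, Meis1, Mmrn1, Slamf1 and Trpc6 with the platelet lists. With Itga2b left out of the selection its median was −0.01, so the shift of the median was not seen in that setting. There 4 of 25 genes were at least 1.5-fold lower, and the share of all genes at this minimum was not counted.

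**Figure D3:**
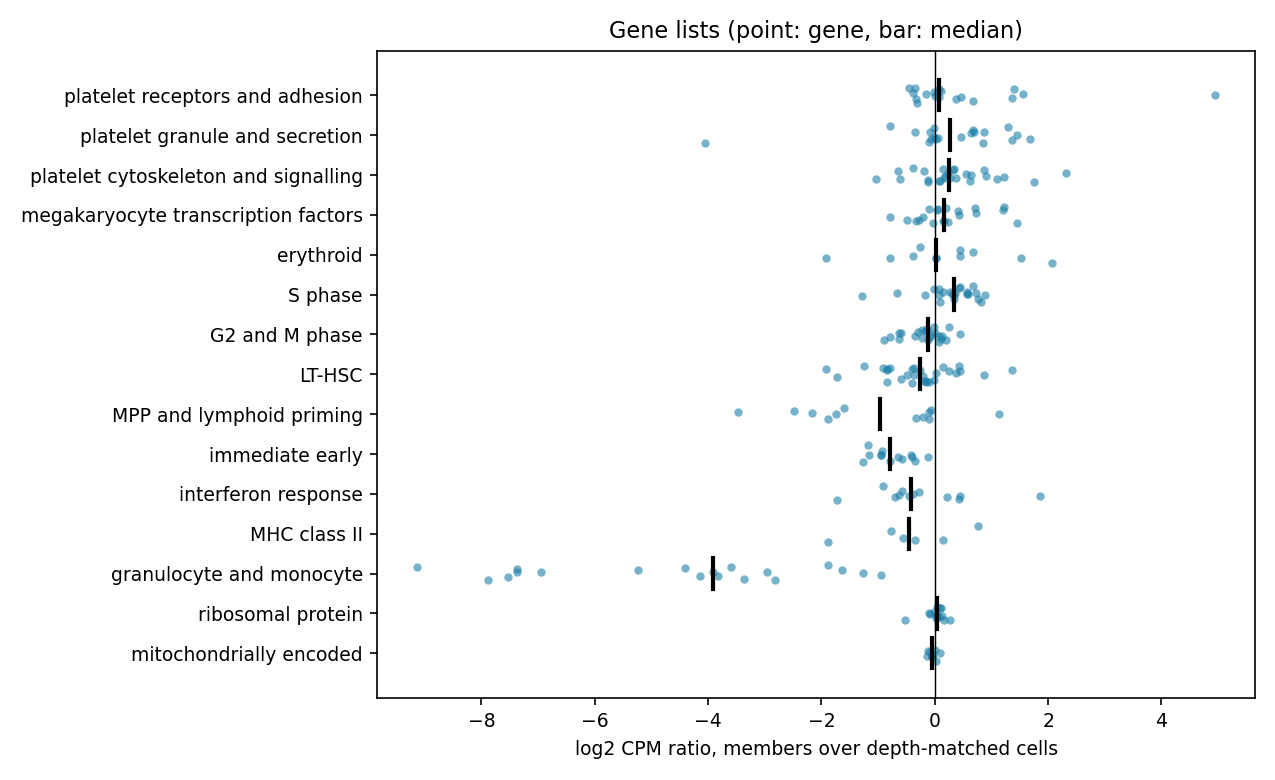
Log2 ratio of CPM in members over depth-matched cells (x axis) for the measured genes of 15 lists (points) with each list's median (bar); vertical scatter has no meaning. The 4 platelet lists have medians between 0.07 and 0.27, the LT-HSC list −0.25 and the granulocyte list −3.92, the last from few comparison cells.

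Of 12 measured genes of multipotent progenitors, the stage between stem cell and committed progenitor, and of lymphoid priming, 1 lay above a ratio of 1 and 11 below. The number at least 1.5-fold higher was 1 and at least 1.5-fold lower 6, with a median log2 ratio of −0.97. Without the granulocyte-rich cells, a setting added after seeing the data, the median was −0.24 over 11 genes. Il12a was the higher one, with 33 UMIs against 15. The sialomucin Cd34 had a ratio of 0.956, Cd27 of 0.938 and Flt3, which drives the Cre of the reporter mice, 30 UMIs against 32. Dntt, a lymphoid enzyme, had 0 UMIs in members and 33 in 4 matched cells. Its ratio was 0.0902 with a floor of 3 UMIs in members, and the interval reached 0.117. Cd52 had 11 UMIs against 61. Granulocyte and monocyte genes were lower in 19 of 19 cases, with 895 summed CPM in members against 8741 in matched cells. That gap came from few cells: Camp had 1 UMI in members against 557 in 7 matched cells, and 12 matched cells and 1 member had at least 10 UMIs over 11 granulocyte and basophil genes. Without such cells 5 genes of the list were measured and 3 were at least 1.5-fold lower, with a median of −0.81. The share of all genes at this minimum was not counted in that setting. Cd177, Fcnb and Hp were at 0 in members. Emb (30 UMIs in 23 members against 135 in 64 matched cells) and Anxa1 (32 in 29 against 137 in 61), both outside the lists, were lower over more cells, with ratios of 0.220 (0.143 to 0.329) and 0.232 (0.153 to 0.342); without the granulocyte-rich cells these were 0.239 and 0.417. Macrophage genes C1qb, Cd5l and Mertk were at 0 in both sets, C1qa and C1qc at 0 in members with 1 UMI each in matched cells, and Hmox1 at 0 against 6 UMIs. The endothelial gene Cdh5 was at 0 in both sets, Emcn had 22 UMIs against 29, Kdr 9 against 5 and Apoe 353 against 238. The endothelial and stromal list summed to 553 CPM in members and 392 in matched cells, most of it from Apoe in both sets. The part of endothelial or stromal cells in the results was not tested. The B, T and NK list summed to 167 CPM in members and 127 in matched cells, most of it from Nkg7 (87 UMIs against 59).

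Several DNA replication genes were higher in members, and no mitotic gene of the list was at least 1.5-fold higher. Of 23 S phase genes 19 lay above a ratio of 1, 5 were at least 1.5-fold higher and 2 at least 1.5-fold lower, with a median log2 ratio of 0.35 (0.24 in aliquot 1 and 0.39 in aliquot 2). Uhrf1, which maintains DNA methylation behind the fork, was at 252 and 235 CPM in members of aliquots 1 and 2 and at 158 and 122 CPM in their matched cells (1.86, 1.43 to 2.41). Ung, which removes uracil from DNA, had a ratio of 1.77 (1.31 to 2.41), but 1.29 without the members of 5 or more UMIs. Rrm1, of ribonucleotide reductase, had 1.67 (1.34 to 2.07), and Mcm2, of the replicative helicase, 1.60 (1.31 to 1.97). When Itga2b was left out of the selection Rrm1 had 1.19 and Mcm2 1.37, both under the 1.5-fold threshold. In both aliquots these 4 genes were higher in members. Of 24 G2 and M phase genes 0 were at least 1.5-fold higher and 5 at least 1.5-fold lower, with a median of −0.13. Cdk1, the mitotic kinase, was at 171 against 126 CPM (1.36, 1.03 to 1.81), Mki67 had 178 UMIs in each set, and Ube2c, a mitotic ubiquitin enzyme, was at 0.577 (0.417 to 0.792). Without depth matching the G2 and M median was 0.66, that of S phase genes 0.99 and the ratio of Ube2c 1.04, so both lists were higher in members by that measure.

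Immediate early genes, which are switched on within minutes of a stimulus, were lower in members. All 13 measured genes lay below a ratio of 1 and 8 were at least 1.5-fold lower (61.5%), with a median of −0.78. Fos was at 39.4 CPM in aliquot 1 (matched cells 221) and 141 CPM in aliquot 2 (matched cells 289) (0.444, 0.342 to 0.572, and 0.286 without the members of 5 or more UMIs), Egr1 at 76.7 against 185 CPM in the pool (0.415, 0.298 to 0.570) and Zfp36 at 114 against 255 (0.445, 0.339 to 0.580). With at least 3 UMIs of the 8 genes the Fos ratio was 0.777 (0.542 to 1.11), and after thinning 0.718 (0.426 to 1.20). Both intervals held 1, and neither ratio was past 1.5-fold. Of 12 interferon response genes 1 was at least 1.5-fold higher and 4 at least 1.5-fold lower (median −0.42), and of 6 MHC class II genes 1 and 2 (median −0.46). Few genes were measured for the basophil, mast and eosinophil list (1 of 4 higher, 2 lower), the endothelial and stromal list (1 of 3 higher, Col1a2 at 1.98 from 10 UMIs) and the macrophage list (Spic, 6 UMIs against 10). Ribosomal protein and mitochondrially encoded genes, as a reference, had medians of 0.04 and −0.05 with 0 genes past 1.5-fold in either direction.

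Outside every list, the gene rule named 12 genes on the higher side. Slc14a1, a urea transporter of red cells, was at 300 and 157 CPM in members of aliquots 1 and 2 and at 31.6 and 36.8 CPM in their matched cells, a ratio of 5.07 (3.31 to 8.05) from 133 UMIs in 68 members. Tuba8, an alpha tubulin, had 45 UMIs in 31 members against 6 in 6 matched cells (7.44, 3.16 to 21.3). Prkca, protein kinase C alpha, was at 79.4 against 23.5 CPM (3.38, 1.94 to 6.20). Pdcd4, a translation inhibitor, was at 646 CPM in aliquot 1 (matched cells 190) and 421 CPM in aliquot 2 (matched cells 184) (2.49, 2.03 to 3.06). Slc22a3, an organic cation transporter, was at 347 against 118 and 239 against 119 CPM in the 2 aliquots (2.17, 1.67 to 2.83). The remaining 7 were Azi2 (4.51), Fnip2 (4.25), Chchd4 (3.19), Mrps26 (3.09), Atp5o (2.79), Gnl3 (2.75) and Pole4 (2.33). When Itga2b was left out of the selection, Tuba8 had 18.4, Azi2 11.3 and Prkca 6.76, all in the same direction. That setting has fewer members and the intervals are not given here, so these sizes are not read as larger effects. On the lower side the rule named Emb and Anxa1, given above, and 10 genes that lay in 6 to 16 matched cells each, such as Lcn2 with 231 UMIs in 6 cells.

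Levels of several platelet and stem cell genes differed with the number of selecting transcripts in the cell. At 0, 1, 2, 3 or 4, and 5 or more UMIs of the 8 genes, without depth matching, Rap1b was at 269, 289, 416, 639 and 1459 CPM. F2r was at 62.3, 79.1, 123, 140 and 251 CPM. Both genes thus had their lowest level at 0 UMIs and their highest at 5 or more. F2rl2 was near 0 below the last class, at 1.60, 4.95, 0, 12.7 and 165 CPM, and 14 of its 17 members had 5 or more UMIs. Vwf was at 51.7, 50.7, 37.0, 63.5 and 194 CPM, and Cd9 at 328, 375, 308, 432 and 855. For Vwf, Cd9 and F2rl2, therefore, the members with 2 UMIs (37.0, 19.1 to 64.7 CPM for Vwf) had an interval that held the level of cells with 0 UMIs or, for F2rl2, no UMI. Hlf went the other way, at 882, 627, 410, 423 and 103 CPM, and Procr at 183, 105, 89.4, 46.6 and 17.1. Summed over lists, LT-HSC genes were at 7115, 5652, 4531, 3883 and 2388 CPM and S phase genes at 2621, 3574, 4426, 5598 and 6025. Median depth went up along the same classes, from 1220 UMIs through 1818, 2220 and 2323 to 2938, and its part in these gradients was not tested.

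**Figure D4:**
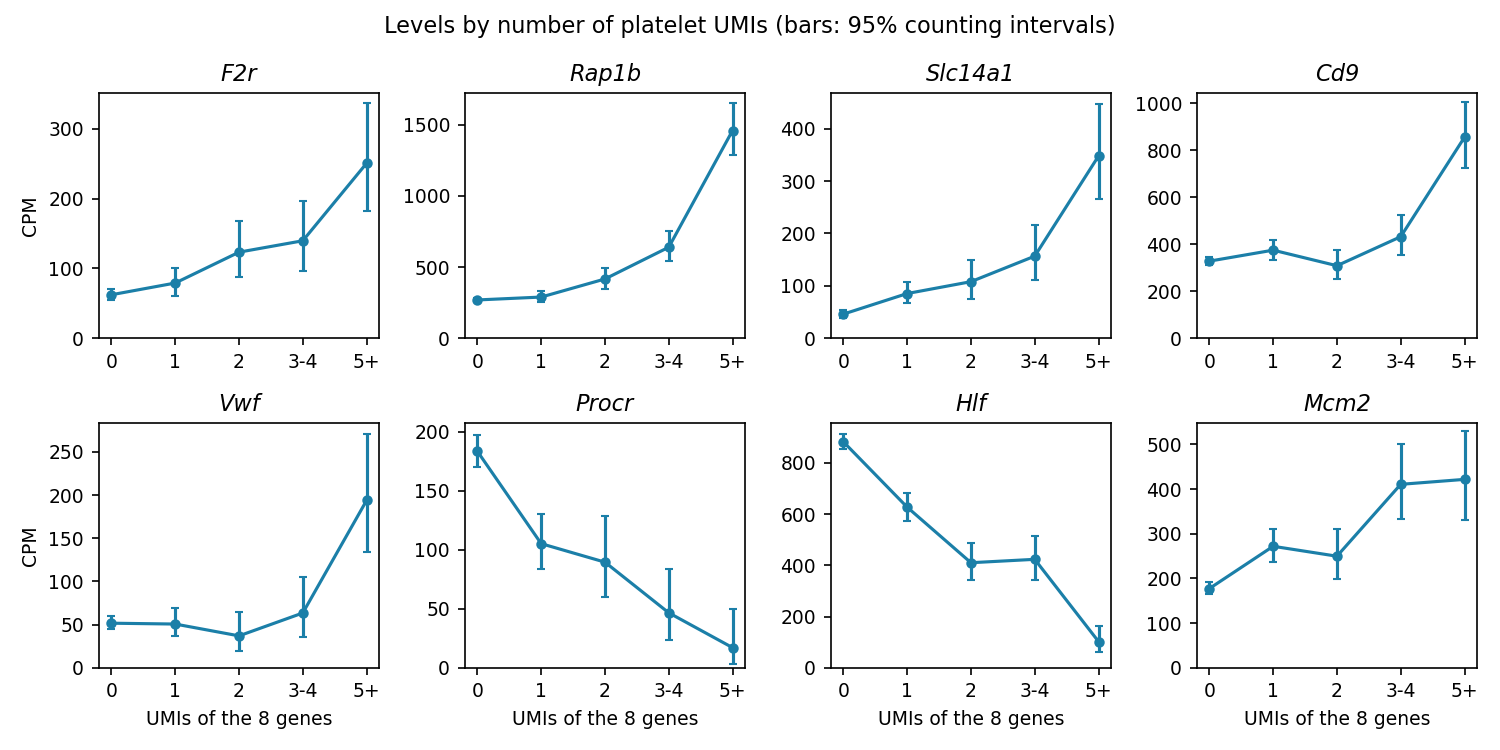
CPM (y axes) of 8 genes in kept cells without Gata1 or Klf1, by UMIs of the 8 selecting genes (x axes); bars are 95% Poisson intervals and classes are not matched on depth. Across the classes Rap1b goes from 269 to 1459 CPM and Hlf from 882 to 103.

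The 77 members with Itga2b as the only selecting gene differed from the other 214 in some of these genes. F2r was at 161 against 158 CPM, with overlapping counting intervals. Rap1b was at 611 (502 to 737) against 777 (706 to 854) CPM. Vwf was at 27.8 (9.02 to 64.8) CPM with Itga2b alone and 101 (76.1 to 131) with another gene. F2rl2 was at 5.56 (0.141 to 31.0) and 55.8 (37.9 to 79.2) CPM. The intervals of both genes did not overlap between the groups, whose median depths were 2267 and 2427 UMIs. The groups also differed in selecting transcripts, with 211 UMIs in the 77 cells and 939 in the 214, and both genes were highest in the class of 5 or more such UMIs. The part of that number in the gap was not tested. LT-HSC genes summed to 3550 (3280 to 3837) and 3897 (3735 to 4065) CPM, and S phase genes to 5434 and 5102.

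The cells most alike were the 66 with a UMI of Gata1 or Klf1 and at least 2 UMIs of the 8 genes. Among these Pf4 had 126 UMIs in 30 cells and Itga2b 133 in 52. Each was paired by depth and aliquot with a member, which gave 195587 UMIs in members and 195596 in Gata1 or Klf1 cells, with 272 and 313 UMIs of the 8 genes. Of 4634 genes that reached 10 UMIs, 21.3% were at least 1.5-fold higher in members and 18.1% at least 1.5-fold lower. Of 63 platelet genes outside the rule, 6 were at least 1.5-fold higher (9.52%) and 19 at least 1.5-fold lower (30.2%), with a median log2 ratio of −0.17. The platelet genes named next were thus lower in members than in the Gata1 or Klf1 cells. Rap1b was at 685 (574 to 811) against 1109 (967 to 1267) CPM, a ratio of 0.618. Cd9 was at 460 (370 to 566) against 961 (829 to 1109) CPM. F2r had 22 UMIs against 46, Plek 17 against 41 and Mef2c 32 against 81, ratios of 0.478, 0.415 and 0.395. In aliquot 1 alone the Rap1b ratio was 1.26, and after thinning, F2r and Plek had 1.5 and 1.2 from few UMIs. Gata2 had 66 UMIs against 102 (0.647, lower bound 0.467), though 1.03 among cells with at least 3 UMIs of the 8 genes, where Rap1b had 0.760 and Mef2c 0.832. Zfpm1 (25 against 48) and Tal1 (21 against 41), which form complexes with Gata1, were at 0.521 and 0.512.

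Several stem cell genes were higher in members in this contrast. Hlf had 64 UMIs against 32 (2.00), Ifitm1 52 against 16 (3.25) and the progenitor receptor Cd27 43 against 19 (2.26). The Hlf ratio was 1.00 among cells with at least 3 UMIs of the 8 genes, from 19 UMIs in each set. After thinning it was 1.14 from 8 UMIs against 7, so neither setting had a higher call for Hlf. Over the LT-HSC list 6 of 14 measured genes were at least 1.5-fold higher in members and 3 at least 1.5-fold lower, with a median of 0.28. Only 6 erythroid genes were measured, with a median of 0.41 (1.32 over cells with at least 3 UMIs of the 8 genes). Car2 was at 2132 (1932 to 2347) against 1600 (1428 to 1788) CPM, while Aqp1 had 11 UMIs against 22 (0.50, lower bound 0.219). The interval of the Aqp1 ratio did not exclude equal levels. In the plot of members and Gata1 or Klf1 cells, F2r, Rap1b and Hlf were at an intermediate level in members. That level lay between Gata1 or Klf1 cells and the depth-matched cells without platelet transcripts given above. Not all plotted genes had this order: Car2 and Cd27 were highest in members, and Mef2c was lowest in them. The median depth was 3102 UMIs in the Gata1 or Klf1 cells and 2383 in those matched cells.

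**Figure D5:**
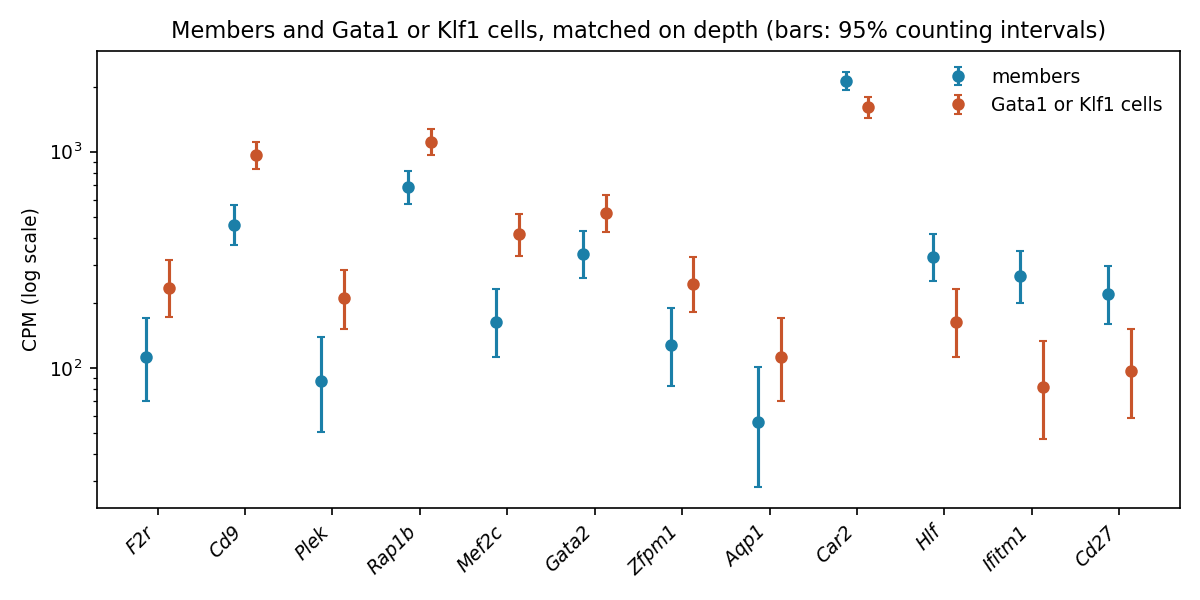
CPM (y axis, log scale) of 12 genes in 66 members and 66 depth-matched Gata1 or Klf1 cells with at least 2 UMIs of the 8 genes; bars are 95% Poisson intervals. Cd9 is at 460 CPM in members against 961, and Hlf at 327 against 164.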

How the data were processed

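Single cells of 1 pool of mouse bone marrow cells were measured in 2 technical aliquots, with 2147 and 8662 barcodes. The deposited tables hold UMI counts for 28206 features, whole numbers that the authors did not normalize; per the submitters' processing notes RSEM 1.3.0, Bowtie 1.1.1 and SAMtools 1.3.1 were used with the build GRCm38. For reads shared between near-identical genes the counting rule is not given in the sources available.

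The GFP feature was left out of all totals. Kept cells held 1640734 and 4027333 UMIs. Members and matched cells were summed, and levels are CPM over the summed UMIs with exact Poisson intervals; ratios have exact conditional binomial intervals and shares Clopper-Pearson intervals, all at 95%. UMIs of a gene come in bursts and cells are not replicates, so no p-value is given. A set at 0 was given a floor of 3 counts in its ratio. The matched comparison left out the 8 rule genes, and the contrast with Gata1 or Klf1 cells also left out those genes. Named genes were members of 19 lists, plus the 12 highest and 12 lowest others with at least 20 UMIs, seen in at least 5 cells, past 1.5-fold in the pool and without the cell with most UMIs, in 1 direction in both aliquots. They were ranked by the interval bound nearest to 1. A few listed genes enter the list counts and are not reported singly here. The members and lists were chosen with earlier results of these data known. Scrublet (scanpy 1.11.5, expected rate 6%) marked 9 and 16 cells, 0.572% and 0.875%, which were not removed. Positions are from GENCODE on GRCm38 and promoters from RefSeq. Calculations were tested on simulated counts. Alternatives changed the rule, the filters, the matching, the depth, the minimum and the aliquots. The settings without granulocyte-rich cells and without members of 5 or more UMIs were added after seeing the data. Scripts ran in Python 3.11.15 with scipy 1.17.1, numpy 2.4.6, matplotlib 3.10.9 and pandas 2.3.3.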

Additional observations from a re-analysis of the deposited data

Results flagged for a closer look

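Barcodes under 500 UMIs were not used above. Among 7372 of them, 23 held at least 2 UMIs of the 8 selecting genes and none of Gata1 or Klf1, 0.312%. They were singled out because this signal lies in data outside the kept cells. The 23 barcodes had 44 to 490 UMIs in all, with a median of 108, and 3 lay in aliquot 1 and 20 in aliquot 2. Itga2b gave 30 of the UMIs and Pf4 18, and no barcode had more than 3. A floor of 3 counts would be 0.0407%, which is no measure of free RNA. Barcodes under 200 UMIs held the 8 genes at 219 CPM, and the UMIs of the 23 barcodes were not told apart from free RNA.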

How the results depend on the processing

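The share of members, 8.55%, was 20.6% with at least 1 UMI of the 8 genes, 4.38% with at least 3, 4.59% without Itga2b in the rule, 10.5% without the Gata1 and Klf1 filter, 11.8% over cells with at least 1000 UMIs and 6.94% without members of 5 or more UMIs; it was 5.53 to 11.2% in single aliquots. Genes at least 1.5-fold higher and lower, 734 and 816, numbered 193 and 207 after thinning to 500 UMIs, 1194 and 1438 at a minimum of 10 UMIs per gene, 229 and 237 at 50, and 3913 and 4809 at 1, as the number of genes compared changed. With 1 aliquot left out they were 233 to 739 and 207 to 772. The LT-HSC median log2 ratio was −0.63 with at least 3 UMIs, −0.0085 without Itga2b in the rule, −0.82 without depth matching and −0.74 to −0.33 in single aliquots. Without depth matching the S phase and G2 and M medians were 0.99 and 0.66. The erythroid median against Gata1 or Klf1 cells was 0.41 over 6 genes that went in both directions, and 1.32 with at least 3 UMIs. Of 154 values for the main comparisons 129 stayed within their interval or within 1.5 times of the count, and for those that did not the cause was not tested beyond the number of genes or cells used.

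For gene ratios, the settings that changed only the minimum of UMIs per gene were not run. Among 84 gene ratios past 1.5-fold, 9 of 1239 values over the other settings had the opposite direction. These were Trpc6 (0.829) and Ube2c (1.04) without depth matching, Mylk (1.14) and Gimap6 (1.26) without Itga2b in the rule, and Mafk, 0.749 to 2.97 in single aliquots. Against Gata1 or Klf1 cells they were F2r (1.5) and Plek (1.2) after thinning, Gata2 (1.03) with at least 3 UMIs, and Rap1b, 0.556 to 1.26 in single aliquots. Of the 75 called against matched cells, 10 came under 1.5-fold without Itga2b in the rule, 21 with at least 1 UMI, 13 of 70 after thinning, 7 without depth matching and 6 of 74 without the members of 5 or more UMIs; of 9 called against Gata1 or Klf1 cells, 5 did with at least 3 UMIs and 5 after thinning. Against matched cells the joined platelet lists had a positive median under each of the settings run. Depth limits detection of genes at under 10 UMIs, and aliquot 1, with 87 members, gives wide intervals. Cells were paired by depth only to choose the comparison sets, which were then summed, so the intervals do not use the pairs. Both aliquots come from 1 pool, and no groups of samples were compared.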
